A study of Mus musculus with 2 samples.

Results

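The transcripts described here are the 33 mouse genes of the chaperone, disulfide, degradation and signalling machinery of the endoplasmic reticulum (ER) named below, taken by symbol from a table of 20823 genes. All 33 were found, 1 of them (Ero1b) under its older symbol Ero1lb. They comprise 14 chaperones and their partners, 7 enzymes of disulfide formation, 9 genes of ER-associated degradation (ERAD) and 3 sensors or transcription factors of the unfolded protein response (UPR).

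The APAP library was made from sorted hepatocytes of C57BL6J mice aged 8 wk, taken 24 h after 300 mg/kg acetaminophen (APAP) given intraperitoneally in saline. The control library came from mice of the same strain and age with no agent. In both, collagenase-perfused liver cells carrying Cd31 or Cd45 were removed and 20000 hepatocytes with high surface Cxcr2 were sorted for messenger RNA sequencing. The number of animals behind each library and whether the control mice received saline were not given in the labels.

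Hepatocytes pass large amounts of plasma protein through the ER, where the chaperone BiP (Hspa5) and its partners fold new chains, protein disulfide isomerases pair their cysteines, and misfolded chains are sent back to the cytosol for degradation. When unfolded chains accumulate, 3 membrane sensors, IRE1 (Ern1), ATF6 and PERK, start the UPR. IRE1 splices the messenger of Xbp1 into an active factor, and ATF6 is cut to release another, and both raise transcription of folding and degradation genes. APAP is oxidised in hepatocytes to a reactive product that binds cellular proteins.

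Totals were 51009898 counts in the APAP library and 52419864 in the control library. Levels are CPM, counts divided by an effective library size that edgeR's TMM scaling (a trimmed mean of log ratios) gives. All 10 hepatocyte markers checked, among them Alb, Apob and Hnf4a, were counted in both libraries, at a summed 84829 CPM in APAP and 59692 CPM in control. Alb alone held 45856 CPM of that sum in APAP and 29194 CPM in control, Fgb was the 1 marker called higher, at 3.35, and 6 of the 10 ratios were below 1, with a median of 0.922. Cxcr2 itself had 2 counts in APAP and 0 in control, so the sort, a selection by protein on the cell surface, could not be checked from this transcript. With 1 library per group there is no replicate error, no test was made, and every interval is a 95% interval of counting error only. A gene is called higher or lower here if its ratio, APAP over control, is at least 2-fold in that direction, its interval excludes 1 and both libraries together hold at least 20 counts.

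As a group, these transcripts were more abundant in the APAP library. The 33 genes were chosen with earlier results of these data known, so the shares and medians that follow describe this list. Of the 33 transcripts 17 were called higher and 0 lower, against 10.7% called higher and 7.09% called lower among the 14096 genes with at least 20 counts. Among the 7050 genes with at least 1000 counts, a minimum that each of the 33 met, 4.45% were called higher and 4.96% lower. The median log2 ratio of the 33 was 1.06, and that of all 14096 genes was 0.0228. Summed over the 33 genes the level was 16106 CPM in APAP and 6862 CPM in control, a ratio of 2.35 (2.34 to 2.36). They took 1.82% of all counts in the APAP library (exact binomial interval 1.81 to 1.82) and 0.609% in the control library (0.607 to 0.611). More RNA per cell and more cells of a kind that is rich in these transcripts cannot be told apart in such libraries. Scaling by total counts moved every log2 ratio, also the median of all genes, up by 0.35 and called 25 of the 33 higher, against 17.3% of all genes higher and 4.44% lower, so the 8 members with ratios of 1.58 to 1.86 depend on the scaling for their call.

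**Figure D1:**
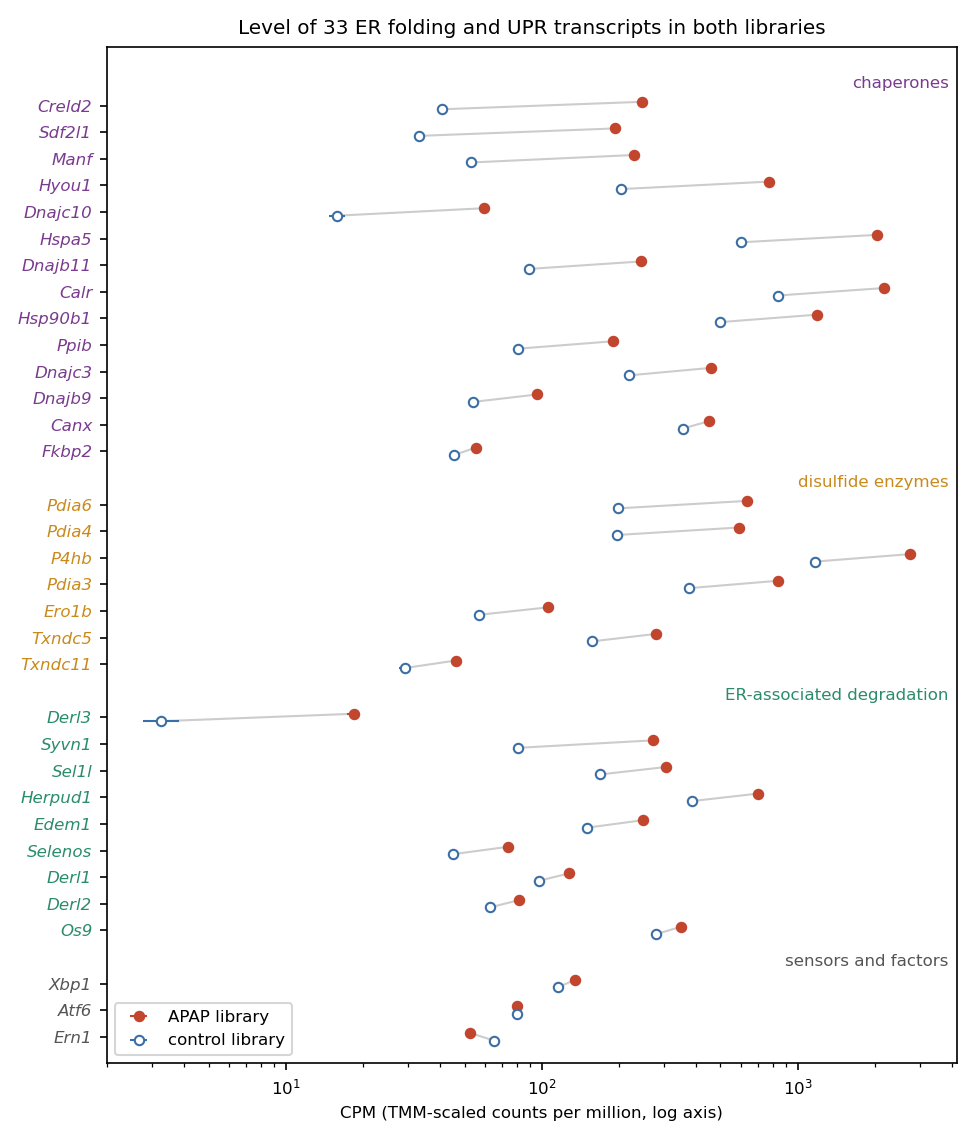
Level of each of the 33 transcripts in CPM on a log axis, grouped by role and sorted by ratio within each role; filled points are the APAP library, open points the control library, and bars (mostly smaller than the points) are 95% counting intervals. APAP points lie to the right of control points for all but Atf6, where they coincide, and Ern1, where they lie to the left.

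The ratios differed by role among the members, which were chosen with earlier results of these data known. Among chaperones and partners 11 of 14 were called higher, among disulfide enzymes 4 of 7, among ERAD genes 2 of 9 and among sensors and factors 0 of 3. Median log2 ratios were 1.41, 1.16, 0.72 and 0.0054 in that order. With total counts the calls were 12 of 14, 7 of 7, 6 of 9 and 0 of 3. Of all genes with at least 20 counts, 10.7% were called higher with TMM and 17.3% with total counts. Of those with at least 1000 counts, 4.45% were called higher with TMM.

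**Figure D2:**
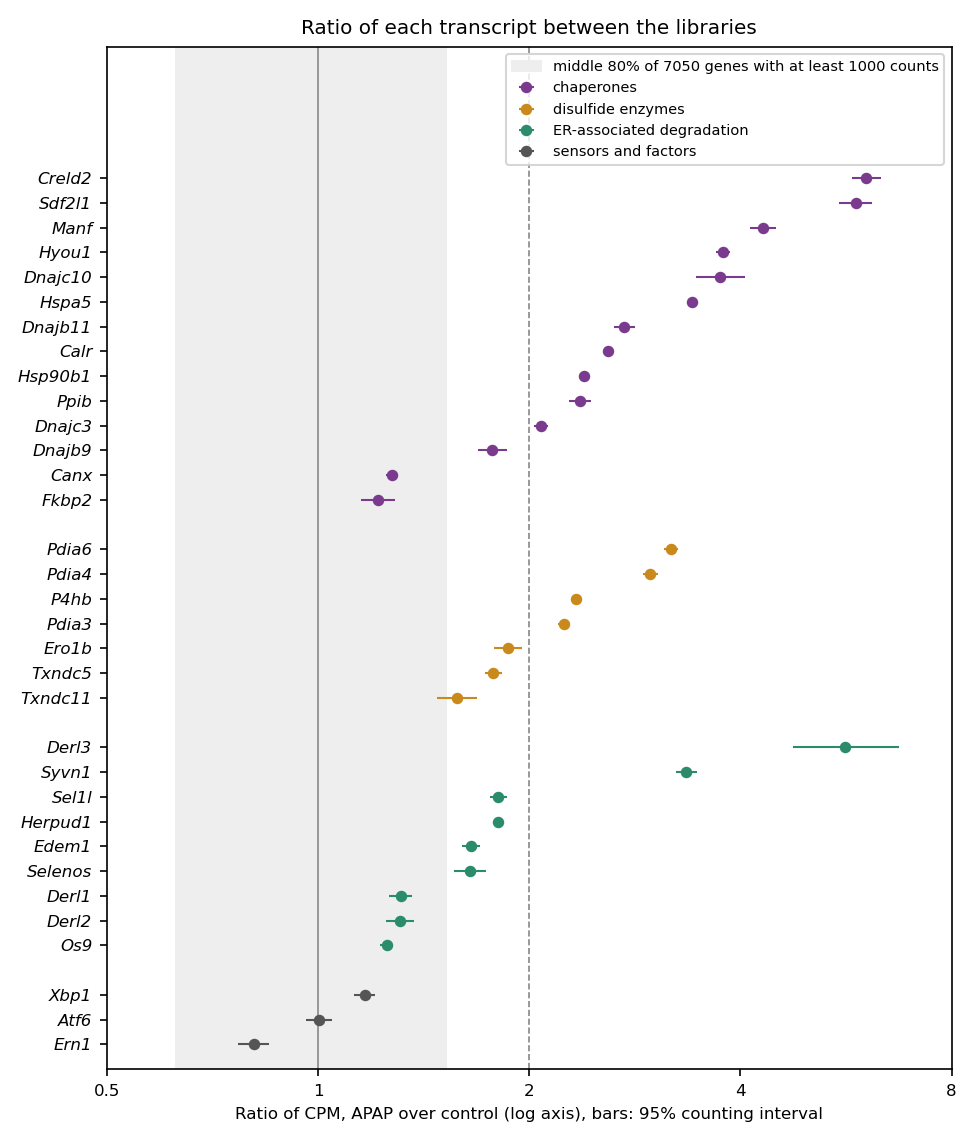
Ratio of CPM, APAP over control, on a log axis for each transcript, with 95% counting intervals; the dashed line marks 2-fold and the grey band holds the middle 80% of the 7050 genes with at least 1000 counts. Chaperones reach furthest to the right with Creld2 at 6.05, and the sensors and factors lie inside the band between 0.810 and 1.17.

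The best known sequence shared by UPR genes is the ER stress element, CCAAT and CCACG with a spacer of any 9 bases between them, which the factor NF-Y and cleaved ATF6 bind together. It was searched on both strands of RefSeq promoter windows (build GRCm38.p6, 250 bases before to 50 bases after each annotated start), together with the shorter form, ATTGG and CCACG with any 1 base between them. A window was at hand for 29 of the 33 genes; Hyou1, Manf, Derl1 and Atf6 had none. The long form was in windows of 10 of these 29 genes (34.5%), against 37 of all 27025 genes of the table (0.137%). Either form was in 12 of 29 (41.4%), against 0.181% of all genes. The element is known from UPR genes, and the members were listed as such genes. These shares therefore describe the list and the reference sequence, not the libraries. The sites are shown as the matches behind these counts; the other 17 genes held neither form. Each is written 5′ to 3′ in the direction of the element, with its position and strand in GRCm38.p6 and with the fixed bases in capitals.

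Hspa5, chr2:34772025-34772043, + strand: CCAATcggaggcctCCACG

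Creld2, chr15:88819520-88819538, - strand: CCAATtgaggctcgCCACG

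Derl3, chr10:75893242-75893260, - strand: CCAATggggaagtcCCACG

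Syvn1, chr19:6046532-6046550, + strand: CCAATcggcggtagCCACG

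Pdia6, chr12:17266491-17266509, + strand: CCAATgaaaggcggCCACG

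Calr, chr8:84847075-84847093, + strand: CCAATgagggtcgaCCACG

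Hsp90b1 upstream site, chr10:86705638-86705656, - strand: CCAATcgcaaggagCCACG

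Hsp90b1 downstream site, chr10:86705533-86705551, + strand: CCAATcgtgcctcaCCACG

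Dnajc3, chr14:118937827-118937845, + strand: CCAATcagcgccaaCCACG

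Ero1b, chr13:12565682-12565700, - strand: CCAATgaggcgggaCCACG

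Canx, chr11:50325800-50325818, - strand: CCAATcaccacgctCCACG

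Dnajb11, short form, chr16:22857852-22857862, + strand: ATTGGcCCACG

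Herpud1, short form, chr8:94386377-94386387, + strand: ATTGGgCCACG

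The 11 long sites began between 44 and 212 bases before the start, 6 on the strand of the gene and 5 on the other. The short site of Herpud1 began 52 bases before the start, and that of Dnajb11 after it. Of the 12 genes with either form 9 were called higher, with a median ratio of 2.66 and a range of 1.27 to 6.05. Of the 17 genes whose windows held neither form 6 were called higher, with a median ratio of 1.77 and a range of 0.810 to 5.84. Both groups thus overlapped over most of their range, and among all genes with at least 1000 counts 4.45% were called higher. Canx, with a site, stood at 1.27, whereas Sdf2l1, whose window does not hold these letters, stood at 5.84. Another motif, the UPR element TGACGTGG that XBP1 and ATF6 bind, was in windows of 2 of 29 genes, Txndc5 and Txndc11, against 0.714% of all genes. No base is shared between any 2 of the sites found in the 29 genes.

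**Figure D3:**
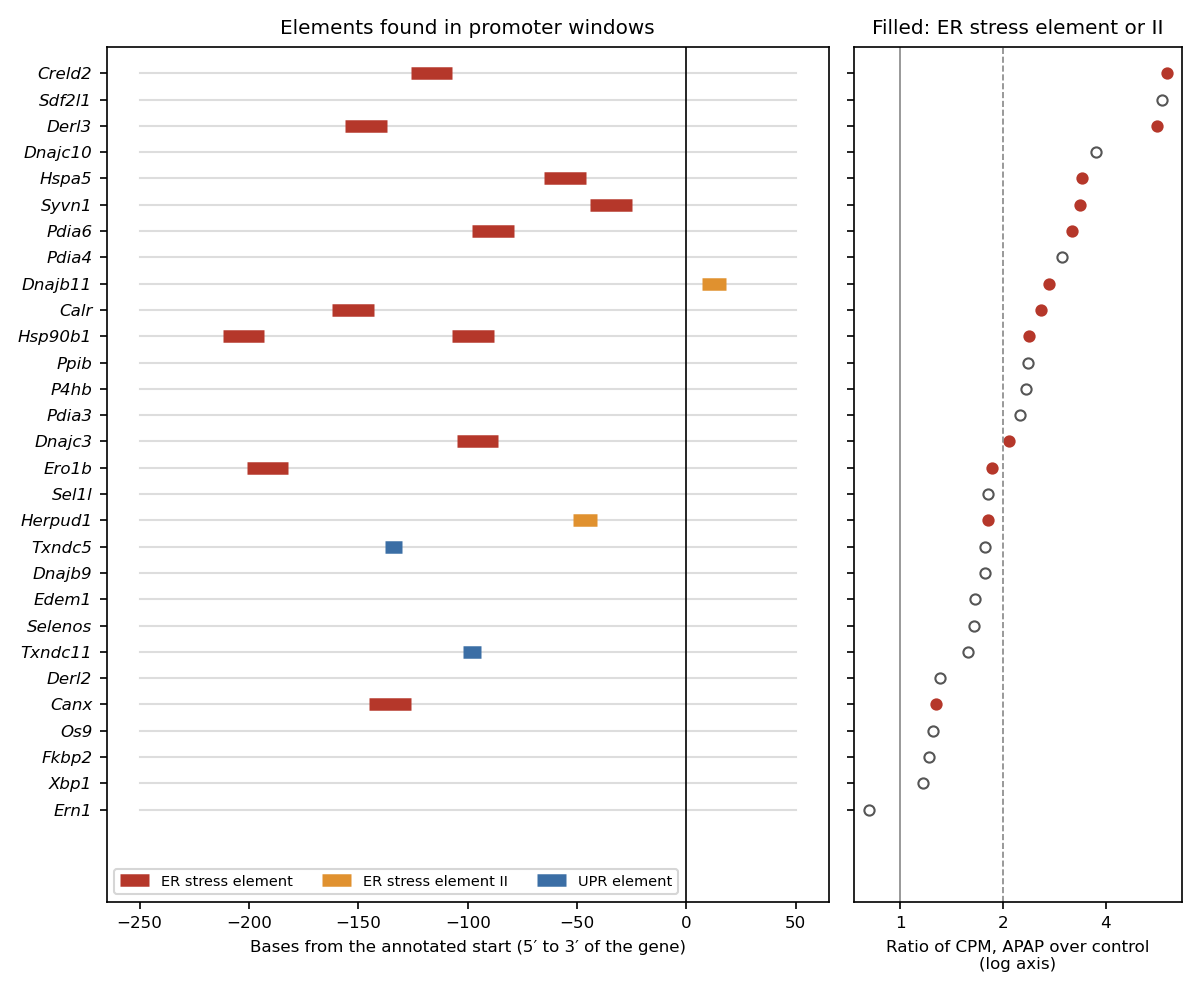
Left, position of the ER stress element, its short form (II) and the UPR element in the promoter window of each of 29 genes, in bases from the annotated start, with genes sorted by ratio and several windows of a gene drawn on 1 line; right, ratio of CPM, APAP over control, on a log axis, with filled points for genes that hold either ER stress element. Filled points occur from 1.27 (Canx) to 6.05 (Creld2), and 6 open points lie beyond 2-fold.

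The bases before the start of Hspa5 and of Creld2 are shown in full as the windows of the master chaperone and of the transcript with the largest ratio; capitals mark the ER stress element. Alg12, on the opposite strand, starts upstream of the Creld2 window.

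Hspa5, 250 bases before the start, chr2:34771840-34772089, + strand: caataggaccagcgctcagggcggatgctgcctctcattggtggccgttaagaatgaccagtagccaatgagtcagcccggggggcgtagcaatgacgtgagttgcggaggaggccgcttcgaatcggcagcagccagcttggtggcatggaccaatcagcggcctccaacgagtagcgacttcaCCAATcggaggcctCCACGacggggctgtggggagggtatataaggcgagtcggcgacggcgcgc

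Creld2, 250 bases before the start, chr15:88819396-88819645, + strand: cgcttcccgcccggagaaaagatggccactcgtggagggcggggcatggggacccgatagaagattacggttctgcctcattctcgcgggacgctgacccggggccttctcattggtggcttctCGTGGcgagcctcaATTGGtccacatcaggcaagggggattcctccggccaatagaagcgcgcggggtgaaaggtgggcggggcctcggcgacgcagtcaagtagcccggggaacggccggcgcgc

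Among the chaperones, BiP, the HSP70 of the ER and the brake on all 3 sensors, stood among the higher ratios. Hspa5 had 118062 counts in APAP and 27955 in control, which is 2053 CPM in APAP against 601 CPM in control and a ratio of 3.42 (3.37 to 3.46). Hyou1, a large HSP70-related protein that exchanges the nucleotide of BiP, was at 772 CPM in APAP and 204 CPM in control, a ratio of 3.78 (3.69 to 3.86). Hsp90b1 (GRP94), the HSP90 of the ER, was at 1193 CPM in APAP and 499 CPM in control, a ratio of 2.39 (2.36 to 2.43). BiP and its exchange partner were thus further apart between the libraries than GRP94. In a comparison that no scaling can change, the ratio of Hspa5 to Hsp90b1 was 1.43 times as high in APAP as in control (1.40 to 1.46).

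The J-domain partners of BiP were spread widely. Dnajc10 (ERdj5), which also reduces disulfides of chains on their way to degradation, was at 59.5 CPM in APAP and 15.9 CPM in control, a ratio of 3.74 (3.46 to 4.06). Dnajb11 (ERdj3), which brings unfolded chains to BiP, was at 245 CPM in APAP and 89.6 CPM in control, a ratio of 2.73 (2.64 to 2.83). Dnajc3 (p58IPK), known as a cochaperone of BiP and an inhibitor of PERK, was at 459 CPM in APAP and 220.5 CPM in control and passed the 2-fold rule narrowly, at 2.08 (2.03 to 2.13). Dnajb9 (ERdj4), a classical target of spliced XBP1 that hands BiP back to IRE1, did not meet it, with 95.8 CPM in APAP, 54.1 CPM in control and a ratio of 1.77 (1.69 to 1.86).

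Among the chaperones, 3 small ER proteins induced by ER stress had the largest ratios. Creld2, a calcium-binding protein with disulfide isomerase activity, had 14207 counts in APAP and 1901 in control, or 247 CPM in APAP and 40.9 CPM in control, a ratio of 6.05 (5.76 to 6.35) that ranked 394 among the 14096 genes. Sdf2l1, which keeps BiP clients from aggregating, had 11178 counts in APAP and 1549 in control, or 194 CPM in APAP and 33.3 CPM in control, a ratio of 5.84 (5.53 to 6.16). Manf, which binds BiP and is secreted under stress, was at 229 CPM in APAP and 53.1 CPM in control, a ratio of 4.31 (4.13 to 4.502). Relative to Hspa5, Creld2 was 1.77 times (1.68 to 1.86) and Sdf2l1 1.71 times (1.62 to 1.80) as high in APAP as in control, so these genes were further apart than BiP under any scaling. These pairs, like the others given in this way, were chosen after their values were seen.

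Both lectin chaperones hold newly made glycoproteins through their sugar, calreticulin free in the lumen and calnexin in the membrane, and they parted. Calr was at 2172 CPM in APAP and 838 CPM in control, a ratio of 2.59 (2.56 to 2.62). Canx was at 453 CPM in APAP and 356 CPM in control, a ratio of 1.27 (1.25 to 1.30), although its promoter window also holds an ER stress element. The ratio of Calr to Canx was 2.04 times as high in APAP as in control (1.99 to 2.08). The prolyl isomerases parted likewise: Ppib (cyclophilin B) was at 190.2 CPM in APAP and 80.5 CPM in control, a ratio of 2.36 (2.28 to 2.45), and Fkbp2 was at 55.2 CPM in APAP and 45.3 CPM in control, a ratio of 1.22 (1.153 to 1.29).

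Of the disulfide enzymes, the 4 major isomerases were called higher and the other 3 were not. P4hb, the founding protein disulfide isomerase, was the most abundant of the 33 transcripts per length in both libraries, at 959 CPM per kilobase of exon in APAP and 411 in control. Its level was 2744 CPM in APAP and 1175 CPM in control, a ratio of 2.34 (2.31 to 2.36). Pdia6, which also attenuates IRE1, had the largest ratio of the group, 3.18 (3.11 to 3.26), from 633 CPM in APAP and 199 CPM in control. Pdia4 (ERp72) was at 588 CPM in APAP and 198 CPM in control, a ratio of 2.98 (2.91 to 3.05). Pdia3 (ERp57), which works with both lectin chaperones on glycoproteins, was at 842 CPM in APAP and 376 CPM in control, a ratio of 2.24 (2.201 to 2.28).

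Ero1b, the oxidase that recharges protein disulfide isomerase, was at 106 CPM in APAP and 57.0 CPM in control, a ratio of 1.86 (1.78 to 1.95). Txndc5 (ERp46), an isomerase with 3 thioredoxin domains, was at 279 CPM in APAP and 157 CPM in control, a ratio of 1.78 (1.73 to 1.83). Txndc11, a membrane thioredoxin protein, was at 46.1 CPM in APAP and 29.3 CPM in control, a ratio of 1.58 (1.48 to 1.68). All 3 lay below 2-fold with TMM scaling and above it with total counts. Relative to Pdia6, Txndc5 was lower in APAP than in control by a factor of 0.559 (0.539 to 0.579).

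ERAD was represented by genes at very different ratios. Derl3, a derlin of the ER membrane that is strongly inducible by XBP1, had 1060 counts in APAP and 152 in control, or 18.4 CPM in APAP against 3.27 CPM in control, a ratio of 5.64 (4.76 to 6.73). It remained the least abundant of the 33 transcripts by CPM in both libraries. Its paralogs were far more even. Derl1 was at 128 CPM in APAP and 97.4 CPM in control, a ratio of 1.31 (1.26 to 1.36), and Derl2 was at 82.0 CPM in APAP and 62.7 CPM in control, also a ratio of 1.31 (1.25 to 1.37). The ratio of Derl3 to Derl1 was 4.30 times as high in APAP as in control (3.61 to 5.12).

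Syvn1 (HRD1), the ubiquitin ligase at the centre of ERAD, was at 272 CPM in APAP and 81.0 CPM in control, a ratio of 3.35 (3.23 to 3.47). Its stabilising partner Sel1l was at 307 CPM in APAP and 169.6 CPM in control, a ratio of 1.81 (1.76 to 1.86), and so did not meet the 2-fold rule. The ratio of ligase to partner was 1.85 times as high in APAP as in control (1.77 to 1.94). Herpud1, a membrane protein that assembles the ligase complex, was at 701 CPM in APAP and 388 CPM in control, a ratio of 1.81 (1.77 to 1.84). The remaining genes of the group act before or after ubiquitination. Edem1, which trims mannose from misfolded glycoproteins, was at 249 CPM in APAP and 151 CPM in control, a ratio of 1.65 (1.60 to 1.70). Selenos, which helps recruit the ATPase p97, was at 73.9 CPM in APAP and 44.9 CPM in control, a ratio of 1.65 (1.56 to 1.74). Os9, the lectin that delivers glycoproteins to the ligase, was at 352 CPM in APAP and 281 CPM in control, a ratio of 1.25 (1.225 to 1.28).

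The sensors and factors themselves differed little. Xbp1 was at 135 CPM in APAP and 116 CPM in control, a ratio of 1.17 (1.13 to 1.21); counts per gene do not tell its spliced from its unspliced messenger. Atf6 was at 80.4 CPM in APAP and 80.1 CPM in control, and its ratio of 1.004 (0.961 to 1.05) was not distinguishable from 1 at this depth in the TMM scaling. Ern1 had 3026 counts in APAP and 3022 in control, or 52.6 CPM in APAP against 65.0 CPM in control, a ratio of 0.810 (0.770 to 0.852) that turned to 1.03 with total counts. Their ratios were thus nearer to 1 than those of most folding genes.

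**Figure D4:**
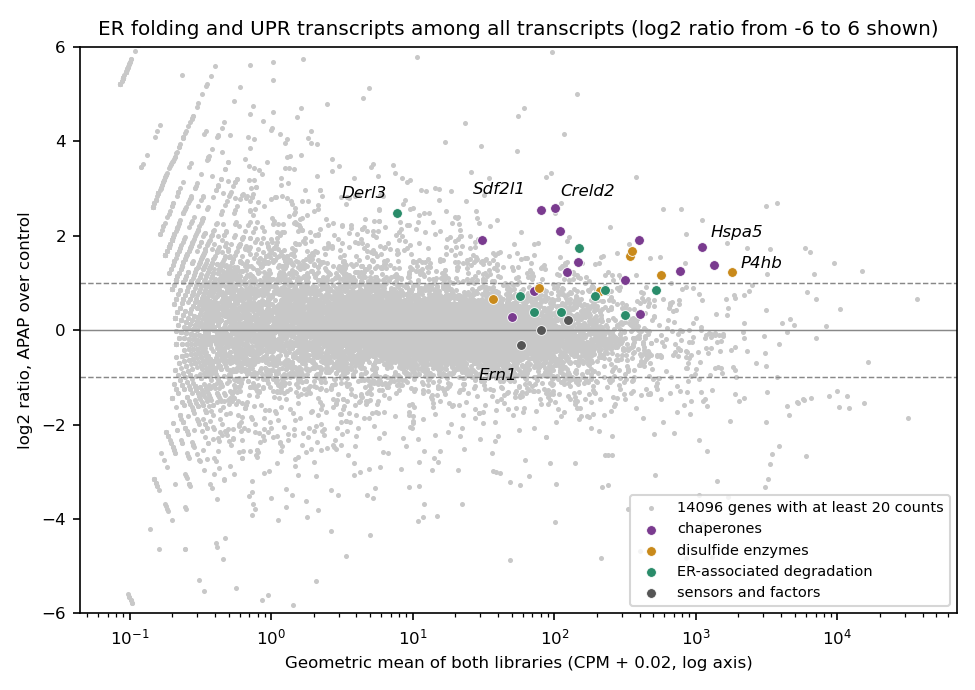
Log2 ratio, APAP over control, against the geometric mean level of both libraries (log axis) for the 14096 genes with at least 20 counts in grey and the 33 members in the colours of their roles; dashed lines mark 2-fold. Members lie on the right, at high levels, mostly between 0 and 2.6 on the log2 axis, with Ern1 below 0.

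Level and ratio were only weakly related among the 33 genes. Pearson's r between the log2 control level and the log2 ratio was -0.21, and Spearman's rho was -0.061 over the same points, which share both libraries; this is a description across genes. The 5 most abundant genes held 55.9% of the members' counts in APAP and 51.0% in control. P4hb led both, with 17.04% in APAP and 17.13% in control, whereas the share of Hspa5 was 12.7% in APAP and 8.76% in control. Creld2 held 1.53% in APAP and 0.596% in control, and Canx 2.81% in APAP and 5.18% in control.

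Some of the members were also grouped by the branch they are best known to answer to. Of 9 genes known mainly as targets of ATF6 (Hspa5, Hsp90b1, Calr, Pdia4, Hyou1, Herpud1, Creld2, Manf and Sdf2l1), 8 were called higher, with a median log2 ratio of 1.77. Of 7 known mainly as targets of XBP1 (Dnajb9, Dnajb11, Dnajc3, Edem1, Pdia6, Derl1 and Derl2), 3 were called higher, with a median of 0.83. With total counts, Herpud1 in the first group and Dnajb9 and Edem1 in the second were called higher as well. By the same rule 10.7% of all genes with at least 20 counts were called higher with TMM, and 17.3% with total counts. The share with TMM was 4.45% among genes with at least 1000 counts. Derl3, also known as a target of XBP1 and at a ratio of 5.64, was not on the second list. Members outside both lists also include Syvn1, at 3.35, and Sel1l, at 1.81. Many of the listed genes answer to both factors, and the lists were chosen with earlier results of these data known. The grouping thus describes the lists and not the activity of a branch.

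Further genes of the same roles, from lists made for this comparison, were nearer to the background than the members. Members and lists were chosen with earlier results of these data known, so this contrast describes the lists and not a difference between kinds of ER gene. Of 105 further genes with at least 20 counts, out of 115, 18 (17.1%) were called higher and 1 lower, with a median log2 ratio of 0.26. That share exceeded the 10.7% of all genes with at least 20 counts and the 4.45% of those with at least 1000. Other folding factors counted 8 higher (26.7%) and 1 lower of 30, with a median of 0.38. Serpinh1, the collagen chaperone, had 37 counts in APAP and 0 in control, at least 9.98-fold higher against a floor of 3 counts in the control library. Rcn1, a calcium-binding protein of the lumen, had 64 counts in APAP and 5 in control, a ratio of 10.4 (4.21 to 32.97). Uggt1, which tests glycoproteins for correct folding, was the most abundant, at 223 CPM in APAP and 103 CPM in control, a ratio of 2.16 (2.09 to 2.23). Cdnf, the paralog of Manf, was the 1 called lower, on 13 counts in APAP and 24 in control, a ratio of 0.438 (0.205 to 0.895). With total counts its ratio was 0.557.

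Other disulfide enzymes counted 4 higher (22.2%, against 10.7% of all genes with at least 20 counts) and 0 lower of 18. Their median log2 ratio was 0.61. Selenom had 27 counts in APAP and 0 in control, which is at least 7.28-fold higher by the floor used for Serpinh1, and Erp29 had a ratio of 2.42 (2.29 to 2.57). Qsox1, a sulfhydryl oxidase and the most abundant, was at 610.5 CPM in APAP and 325 CPM in control, a ratio of 1.88 (1.84 to 1.91). Of 36 other ERAD genes, each with at least 1000 counts, 2 were called higher (5.56%) and 0 lower. Among all genes with that minimum 4.45% were called higher and 4.96% lower. The median log2 ratio of the 36 was 0.060. The 2 called higher were Edem2, at 2.61 (2.50 to 2.74), and the ubiquitin-conjugating enzyme gene Ube2g2, at 2.09 (1.94 to 2.24). Vcp, which encodes p97 and was the most abundant, was at 284 CPM in APAP and 302 CPM in control, a ratio of 0.939 that turned to 1.19 with total counts.

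Other sensors, factors and regulators counted 4 higher and 0 lower of 21, with a median log2 ratio of 0.25. Bhlha15, a transcription factor of professional secretory cells, had 811 counts in APAP and 8 in control, a ratio of 82.0 (41.4 to 191). Ddit3, which encodes CHOP of the PERK branch, had a ratio of 3.23 (2.77 to 3.79). From the same list Trib3 (1.60), Atf4 (1.24), Eif2s1 (1.22), Ppp1r15a (0.961) and Ppp1r15b (0.731) were not called. These genes, too, are named after their values were seen. Tmbim6, a membrane protein known to inhibit IRE1 and the most abundant, was at 1033 CPM in APAP and 1437 CPM in control, a ratio of 0.719 that became 0.913 with total counts. Eif2ak3, which encodes PERK, and Atf6b, the paralog of Atf6, chosen here after their values were seen, had ratios of 1.69 (1.54 to 1.86) and 1.74 (1.60 to 1.90).

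The receptors that return escaped chaperones to the ER through their terminal KDEL signal had ratios between 1 and 2 where they could be measured. Kdelr1 was at 92.5 CPM in APAP and 63.6 CPM in control, a ratio of 1.45 (1.39 to 1.52), and Kdelr2 was at 116 CPM in APAP and 65.1 CPM in control, a ratio of 1.79 (1.71 to 1.87). Kdelr3 had 14 counts in APAP and 0 in control, which is under the minimum of 20 counts.

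**Figure D5:**
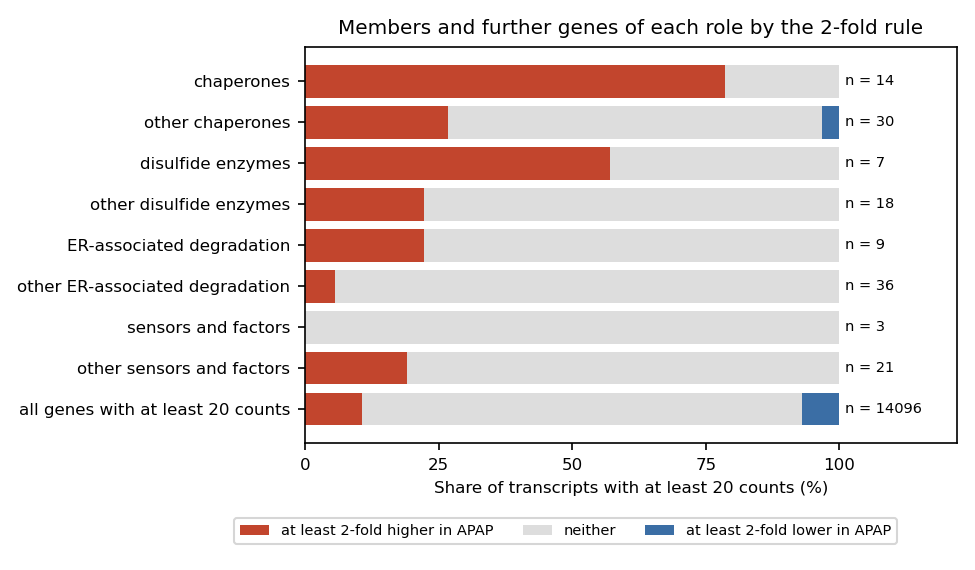
Share of transcripts, in percent, called at least 2-fold higher in APAP, called neither, or called at least 2-fold lower in APAP, for the members and for the further genes of each role and for all genes with at least 20 counts. The members' chaperones have the longest red bar (11 of 14). The bar of the other ERAD genes (2 of 36, 5.56%) is shorter than that of all genes (10.7%). However, these 36 genes each held at least 1000 counts, and 4.45% of all genes with that minimum were called higher. Members and lists were chosen with earlier results of these data known.

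Summed markers of other cells differed between the libraries beside these results, at far lower levels apart from Sdc1. For neutrophil markers the counts were too few to tell. The summed CPM of macrophage markers (7 of 12 listed, without Adgre1, Clec4f, Vsig4, C1qb and Itgam) was 7.18 in APAP and 0.151 in control, that of stellate cells or fibroblasts (8 of 10 listed) 10.8 in APAP and 1.097 in control, and that of endothelial cells (9 of 10 listed) 23.6 in APAP and 17.9 in control. Cd68 alone held 287 of the 413 macrophage counts in APAP and 3 of 7 in control. Cd14 held 78 in APAP and 4 in control, and Csf1r 24 in APAP and 0 in control. Marco, C1qc, Lyz2 and C1qa, with 10, 6, 4 and 4 counts in APAP and 0 in control, were each under the minimum of counts. Reln held 540 of the 623 stellate or fibroblast counts in APAP and 35 of 51 in control. Of the 9 endothelial markers 5 were called higher (Lyve1, Cdh5, Tek, Pecam1 and Stab1, at 2.18 to 7.48) and Stab2 lower, at 0.479, with a median ratio of 2.18. Kdr (0.896), Eng (1.87) and Clec4g (1.80) were not called. Lyve1 rested on 37 counts in APAP and 4 in control, and Tek on 30 in APAP and 6 in control. Among all genes with at least 20 counts 10.7% were called higher and 7.09% lower. Cholangiocyte markers (3 of 7 listed, without Krt19, Krt7, Epcam and Cftr) summed to 51.6 CPM in APAP and 17.8 CPM in control. Neutrophil markers (2 of 8 listed, both under the minimum of 20 counts) summed to 0.174 CPM in APAP and 0.0860 CPM in control. Those sums held 10 counts in APAP and 4 in control, a ratio of 2.02 (0.583 to 8.83). Plasma cells are rich in several of the 33 transcripts, among them Derl3, Txndc5 and Creld2. Of 15 plasma or B cell markers 7 were listed, with a sum of 369 CPM in APAP and 162 CPM in control. Nearly all of it was Sdc1, which hepatocytes also express and which had 21189 counts in APAP and 7248 in control, a ratio of 2.36 (2.30 to 2.43). The other 6 held 12 counts in APAP and 292 in control, of which Ighm held 6 in APAP and 277 in control. The members' own sum was higher in APAP by 9245 CPM. What other cells contributed to single members was not tested.

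Exons of some members overlap those of other genes in GENCODE M21 (GRCm38), and the labels do not state the strand setting of the counting. Ppib shares 24.96% of its exon bases with Snx22 on the opposite strand, which had 16 counts in APAP and 4 in control. Hsp90b1 shares 10.3% with a pseudogene that had 79 counts in APAP and 51 in control. Each of the other overlaps took less than 7% of the exon bases of its member.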

How the data were processed

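RNA-seq libraries of sorted mouse hepatocytes, 1 APAP and 1 control, were compared. The tools named are HISAT2 and Subread and the build is mm39, per the submitters' processing notes. Neither versions nor annotation nor strand setting is stated there. The authors deposited raw counts per Ensembl gene, which were analysed here, and a signal normalized by the authors with 1 size factor per library (1.12 for APAP, 0.894 for control), which served as an alternative scaling. Symbols were paired with 20679 of 20823 identifiers.

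Counts were scaled by TMM (edgeR 4.0.16, R 4.3.3), to effective totals of 57493500 for APAP and 46508421 for control, so that 1 count is 0.0174 CPM in APAP and 0.0215 CPM in control. Ratios carry exact conditional Poisson intervals (Clopper-Pearson). Intervals of a ratio between 2 genes are Wald intervals of the log ratio. List medians use a prior of 0.5 counts. No molecular identifiers are named in the labels, and low counts (1 to 20) were mostly even, 70.6% in APAP and 68.3% in control, so if both mates of a read pair were counted, the true intervals are wider. Other steps used Python 3.11.15, numpy 2.4.6, scipy 1.17.1 and pandas 2.3.3.

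Promoter windows came from RefSeq (GRCm38.p6), exon lengths from GENCODE M21 of the same build; no mm39 coordinates are given. The members and all lists were chosen with earlier results of these data known. All members are named, and of each further list the 2 genes farthest in each direction among those called and the most abundant in APAP. Another list of pathway genes is not reported here. Alternatives were other scalings (total counts, DESeq2 1.42.0 size factors, the deposited signal, totals without genes over 1% of a library), other minimums, a 1.5-fold rule, halved counts, a window of 250 bases and 1 allowed mismatch, the last chosen after seeing the data, as was the background of genes with at least 1000 counts.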

Additional observations from a re-analysis of the deposited data

How the results depend on the processing

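The 17 transcripts called higher were called higher under each scaling tried and with halved counts, and 0 members were called lower under any alternative. Total counts added 8 calls (Dnajb9, Txndc5, Txndc11, Ero1b, Herpud1, Edem1, Sel1l and Selenos), and totals without genes over 1% of a library added the same genes other than Txndc11; both moved the median log2 ratio of the members to 1.40, while the median of all genes moved to 0.37 and 0.36. The 1.5-fold rule called 25 members higher, against 17.6% of all genes. Without the genes over 1% in the denominator, the members held 2.41% of counts in APAP and 0.812% in control. DESeq2 size factors and the authors' normalized signal gave 17 calls and a median of 1.04. With 1 mismatch allowed in the long element, 17 of 29 genes held an ER stress element (16 the long form, against 1.72% of all genes, where exact matches gave 10 and 0.137%), and with the 250 bases before the start alone 11 did. No paired analysis was possible because each group held 1 library, and for the same reason no library could be left out. Depth limits the weakest members little: Derl3, the lowest, had 152 counts in control.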

Other observations

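The ER stress element also occurs in promoter windows of genes outside the list. Of 37 such genes with either form 23 were listed and 15 had at least 20 counts; 6 of these 15 were called higher and 1 lower, against 10.7% higher and 7.09% lower among all genes with at least 20 counts. Alg12, a mannosyltransferase that builds the sugar chain attached in the ER, starts on the opposite strand from Creld2 and its window holds the same site. Alg12 had 988 counts in APAP and 181 in control, a ratio of 4.42 (3.76 to 5.20), beside 6.05 for Creld2. Krtcap2, a subunit of the oligosaccharyltransferase that attaches that chain, was at 59.4 CPM in APAP and 26.7 CPM in control, a ratio of 2.22 (2.08 to 2.37). Its window holds the short form, which begins after the annotated start. Acnat2, an acyltransferase gene, was at 105 CPM in APAP and 11.2 CPM in control, a ratio of 9.38 (8.58 to 10.3). Acacb, an acetyl-CoA carboxylase gene, was the 1 called lower, at 62.7 CPM in APAP and 153 CPM in control, a ratio of 0.411 (0.395 to 0.428). These genes were chosen after their values were seen.

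Fkbp11, a prolyl isomerase gene of secretory tissues chosen in the same way, was at 47.6 CPM in APAP and 9.01 CPM in control. Its ratio of 5.28 (4.76 to 5.86) was close to those of Creld2, Sdf2l1 and Derl3.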
